A study of Mus musculus with 2 samples.

Results

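The receptors by which natural killer (NK) cells recognize their targets, and the IL-15 system that maintains these cells, were followed as 10 genes through subcutaneous ovarian tumors of WT and TSK mice. The 10 genes were taken by symbol from the 32285 genes of the count files, and all 10 were found. They comprised 6 receptor genes (Klrb1c, Ncr1, Klrk1, Klrd1, Klrc1 and Klre1), the transcription factor gene Eomes, and Il2rb, Il15 and Il15ra. Molecules (unique molecular identifiers, UMIs) were counted in cells with at least 200 genes, at least 500 UMIs and at most 10% mitochondrial UMIs, whose barcode was not found in both libraries. This left 1442 of 2332 barcodes in the WT library and 2961 of 4436 in the TSK library.

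NK cells carry activating and inhibitory receptors and weigh the signals of both before they kill. NKG2D (Klrk1) is activating and binds stress-induced ligands, and NKp46 (Ncr1) and NK1.1 (Klrb1c) are activating receptors by which mouse NK cells are usually identified. CD94 (Klrd1) pairs with NKG2A (Klrc1) into an inhibitory receptor for the MHC molecule Qa-1, and both NKG2D and CD94/NKG2 receptors are also known from activated CD8 T cells. IL-15 is displayed to lymphocytes on the IL-15 receptor alpha chain (Il15ra) of a neighbouring cell, and is received through the beta chain (Il2rb), shared with IL-2, and the common gamma chain. Eomes is a T-box factor needed for NK cell maturation.

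Both groups consisted of female C57BL/6 mice aged 6 to 8 weeks that carried tumors of SO cells, a mouse ovarian cancer line lacking p53 and expressing HRAS and MYC, injected under the skin of the flanks (1000000 cells). TSK mice carry, in the heterozygous state, an intragenic duplication within the fibrillin-1 gene Fbn1, and WT mice do not. The duplication is germline and present in all host cells, and 3′ counts cannot show it, so the genotype labels were not checked here. Tumors of 4 mice were pooled for each genotype and each pool gave 1 library, so no test between genotypes was possible. All intervals are exact 95% intervals for counting error only and do not cover differences between mice, between digestions or between cells.

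Cells were named by raw UMIs of markers that are not among the 10 genes. NK cells needed 2 of 11 genes (the Ly49 genes Klra3, Klra4, Klra7, Klra8 and Klra9, and Klrb1a, Klrb1f, Klri2, Gzma, Txk and Sh2d1b1), T cells 2 of 6 genes with a Cd3 UMI, and macrophages and monocytes 3 of 10. This gave 18 WT and 19 TSK NK cells, 453 and 260 T cells, 326 and 452 macrophages and monocytes, 12 and 15 dendritic cells, and 25 and 183 neutrophils. NK cells were 1.25% (0.741 to 1.97) of WT and 0.642% (0.387 to 1.00) of TSK cells, a log2 ratio of -0.96 (-1.97 to 0.05). The gate needs 2 detected genes, and WT NK cells were deeper (median 6673 against 2597 UMIs). The part of depth in these shares was not tested. Cancer or fibroblast cells, which are in the total, were 16.2% of WT and 43.0% of TSK cells. Per T cell, NK cells were more numerous in TSK than in WT. In the named NK cells 4 of the 6 T cell genes were at 0 in each library, with 2 and 3 T cell UMIs in all and at most 1 in a cell, but the gate itself limits these genes. Trbc2, a T cell receptor gene that the gate did not use, gave 10 and 5 UMIs in 6 of 18 WT and 3 of 19 TSK NK cells (77.9 and 89.3 CPM, UMIs per 1000000 of the class), against 555 and 659 CPM in T cells. The 10 macrophage markers summed to 296 and 286 UMIs per 1000000 in NK cells, against 7762 and 10475 in macrophages and monocytes. The gate does not separate NK cells from other innate lymphoid cells that carry Ncr1 and Klrb1c.

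Depth differed between the libraries within the same class. The median was 6673 UMIs per WT NK cell and 2597 per TSK NK cell, 6876 and 3030 per T cell, and 10069 and 6466 per macrophage or monocyte. Levels are therefore given as UMIs per 1000000 UMIs of the class (CPM). Shares of cells with a UMI were recomputed with every cell of at least 1000 UMIs thinned to 1000, and shallower cells were left out of these shares. In NK, T and macrophage cells the median log2 ratio of TSK over WT was 0.11 over 1442, 0.18 over 9168 and 0.26 over 10570 genes that had 20 or more UMIs there, and the ratios below are to be read against these shifts.

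Of the 6 receptor genes, 5 lie close together on chromosome 6 (GRCm38, GENCODE M21), in the NK gene complex, within 900 kb. These are Klrb1c (chr6:128778485-128789215, minus strand), Klre1 (chr6:129577905-129585827, plus), Klrd1 (chr6:129591782-129598775, plus), Klrk1 (chr6:129610323-129623864, minus) and Klrc1 (chr6:129666015-129678973, minus). Ncr1 lies on chromosome 7 (chr7:4337724-4345164, plus), Eomes on chromosome 9 (chr9:118478212-118486132, plus), Il2rb on chromosome 15 (chr15:78479256-78495271, minus), Il15 on chromosome 8 (chr8:82331632-82403222, minus) and Il15ra on chromosome 2 (chr2:11705290-11734317, plus). Exons of Klrb1c overlap those of the annotated gene Gm44511 on the same strand, and Klrc1 has the related neighbours Klrc2 and Klrc3. Reads of Klrb1c or Klrc1 that also match a neighbour may be left uncounted or be counted for that neighbour.

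Of the 10 members, 7 matched the promoter table of RefSeq. The promoters of the 5 receptor genes among them (GRCm38.p6, 250 bases before to 50 after the first listed start) are shown because some of these genes were at least 2-fold higher in NK than in T cells and others were not. Capitals mark GTGTGA, the core of T-box sites, TGTGGT, the core of RUNX sites, and GAAANNGAA, an interferon-response type of repeat, on either strand, and no match overlapped another. Klrk1 and Klrc1 stand for the shared group, and Klrb1c, Ncr1 and Klre1 were higher in NK cells.
Ncr1, chr7:4337465-4337764, plus: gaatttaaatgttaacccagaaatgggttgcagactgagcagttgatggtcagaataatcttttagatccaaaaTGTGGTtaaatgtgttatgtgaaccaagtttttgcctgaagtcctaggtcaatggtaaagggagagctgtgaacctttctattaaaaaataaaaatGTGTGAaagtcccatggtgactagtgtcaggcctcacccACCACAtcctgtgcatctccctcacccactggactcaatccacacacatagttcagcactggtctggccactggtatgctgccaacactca
Klrb1c, chr6:128788592-128788891, minus: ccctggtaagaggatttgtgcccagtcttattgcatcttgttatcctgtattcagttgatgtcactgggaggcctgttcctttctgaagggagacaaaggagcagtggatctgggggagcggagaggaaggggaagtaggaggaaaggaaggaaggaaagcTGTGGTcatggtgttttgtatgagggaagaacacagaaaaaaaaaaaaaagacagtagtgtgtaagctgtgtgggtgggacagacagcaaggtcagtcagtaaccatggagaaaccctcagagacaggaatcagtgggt
Klre1, chr6:129577963-129578262, plus: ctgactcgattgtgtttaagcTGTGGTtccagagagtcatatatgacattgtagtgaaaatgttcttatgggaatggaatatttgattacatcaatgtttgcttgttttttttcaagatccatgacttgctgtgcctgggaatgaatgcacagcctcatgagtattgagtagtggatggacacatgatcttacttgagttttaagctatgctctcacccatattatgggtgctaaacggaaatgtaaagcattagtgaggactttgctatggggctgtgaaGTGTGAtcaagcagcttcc
Klrk1, chr6:129623815-129624114, minus: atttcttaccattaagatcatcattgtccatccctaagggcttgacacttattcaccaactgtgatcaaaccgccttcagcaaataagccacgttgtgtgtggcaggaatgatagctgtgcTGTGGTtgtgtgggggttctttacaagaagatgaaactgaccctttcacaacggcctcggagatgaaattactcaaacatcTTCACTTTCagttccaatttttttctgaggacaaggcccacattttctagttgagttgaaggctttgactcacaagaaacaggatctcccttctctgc
Klrc1, chr6:129678924-129679223, minus: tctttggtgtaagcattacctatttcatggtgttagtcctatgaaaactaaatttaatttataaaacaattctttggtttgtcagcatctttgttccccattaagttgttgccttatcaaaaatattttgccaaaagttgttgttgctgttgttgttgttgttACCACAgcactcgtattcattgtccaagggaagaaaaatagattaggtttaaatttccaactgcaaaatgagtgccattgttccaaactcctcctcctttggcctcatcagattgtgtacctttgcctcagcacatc

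All 5 of these windows held TGTGGT, on either strand, which was found in 16.8% of the 32851 promoters of the table. Ncr1 had 2 such matches, beginning 176 bases and 41 bases before the start, and the others had 1 each. GTGTGA, found in 14.5% of all promoters, occurred in Ncr1 (80 bases before the start) and in Klre1 (within the transcribed bases) but not in Klrb1c, Klrk1 or Klrc1. The window of the second listed start of Klre1, not printed, held no TGTGGT. The same GTGTGA began 42 bases before that start, so both placements for Klre1 depend on the start chosen. GAAANNGAA, found in 8.56% of all promoters, occurred in Klrk1. It also occurred in the windows of Eomes and of both Il15ra starts, which held no TGTGGT. The first listed starts of Klrb1c and Klre1 lie within the annotated genes, and so do the whole printed windows of these genes. The letters are a description of the windows and say nothing on binding.

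In these tumors most UMIs of the NK receptor genes lay in T cells. T cells held 2389 of the 3216 UMIs of the 6 receptor genes (74.3%, 72.7 to 75.8), and NK cells 262 (8.15%, 7.22 to 9.15), while T and NK cells gave 6.95% and 0.294% of all UMIs. The 6 genes did not share 1 pattern. Of Ncr1, 57.1% of 28 UMIs (37.2 to 75.5) lay in NK cells, and of Klrb1c 44.7% of 76 UMIs (33.3 to 56.6). T cells held 87.1% of the 707 Klrc1 UMIs, 76.9% of the 896 Klrd1 UMIs, 71.5% of the 1112 Klrk1 UMIs and 66.2% of the 397 Klre1 UMIs. Eomes and Il2rb were placed like the latter group, with 75.4% of 211 and 78.7% of 2375 UMIs in T cells. The libraries differed in these shares. T cells gave 20.01% of all WT UMIs and 2.07% of all TSK UMIs, and held 78.8% of the receptor UMIs in WT and 62.2% in TSK. By gene the shares were 88.5% and 83.0% for Klrc1, 80.8% and 65.0% for Klrd1, 75.2% and 60.6% for Klrk1, and 76.1% and 49.3% for Klre1. For Eomes they were 84.0% and 56.7%, and for Il2rb 81.9% and 66.5%. Il15 and Il15ra were placed differently, with none of the 515 Il15 UMIs in T or NK cells.

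**Figure D1:**
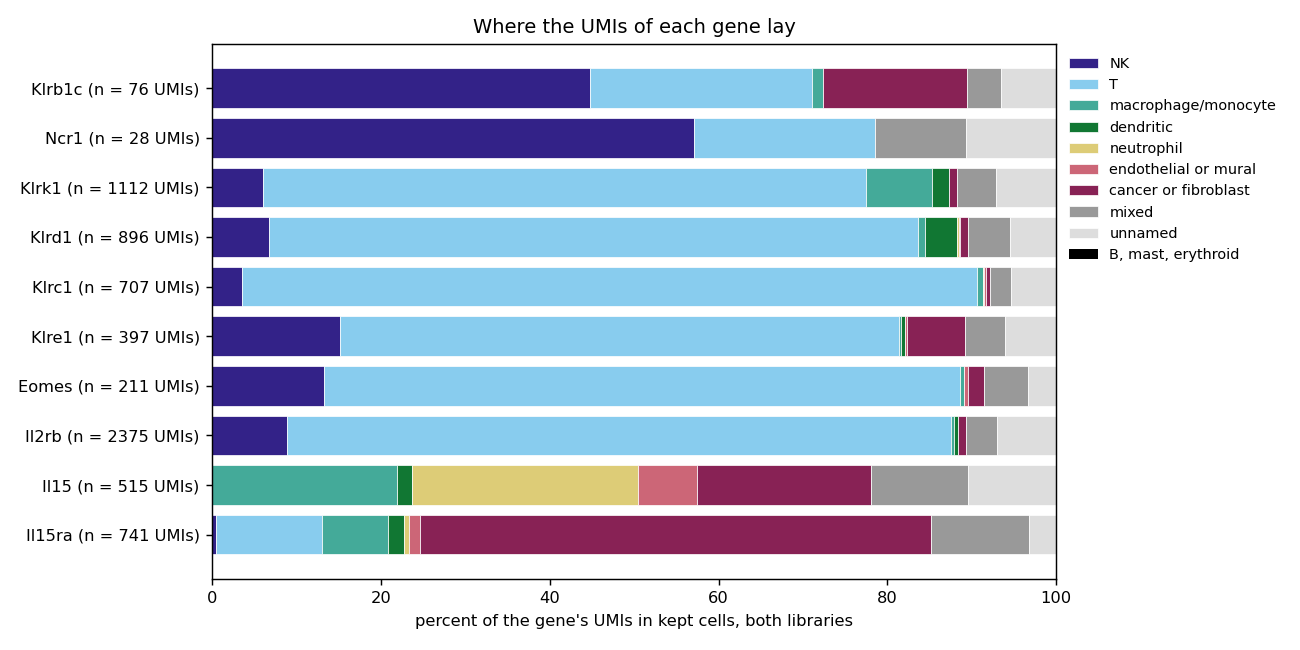
Share of each gene's UMIs (horizontal axis, percent) by cell class, over the kept cells of both libraries; n is the number of UMIs. Klrk1, Klrd1, Klrc1, Klre1, Eomes and Il2rb lay mostly in T cells, Klrb1c and Ncr1 mostly in NK cells among the lymphoid classes, and Il15 in neutrophils, macrophages and cancer or fibroblast cells.

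Relative to their total UMIs, NK cells were above T cells in both libraries for 7 of the 10 genes. Of the 9 members with 20 or more UMIs over NK and T cells, 4 were at least 2-fold higher in NK cells in both libraries (Klrb1c, Ncr1, Klre1 and Eomes), where 3.82% of 9265 genes were. NK cells were chosen by other genes of the same cell type, so the count is a description of where the genes were measured.

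Klrb1c (NK1.1) was at 164 CPM (101 to 250, 21 UMIs in 8 of 18 cells) in WT NK cells and at 232 CPM (124 to 397, 13 UMIs in 10 of 19 cells) in TSK NK cells. T cells had 3.81 and 7.42 CPM. The NK level was 43.0-fold and 31.3-fold that of T cells. The cancer or fibroblast class, which should lack the gene, had 0.351 and 0.344 CPM, with a UMI in 0.858% and 0.549% of cells at medians of 23436 and 21131 UMIs.

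Ncr1 (NKp46) gave 10 UMIs in 5 WT NK cells (77.9 CPM, 37.3 to 143) and 6 UMIs in 5 TSK NK cells (107 CPM, 39.3 to 233). T cells gave 3 UMIs in each library (0.878 and 3.18 CPM), and no Ncr1 UMI was found in macrophages and monocytes, dendritic cells, neutrophils, endothelial or mural cells, or cancer or fibroblast cells of either library. Of the 12 WT and 7 TSK T cells with a UMI of Klrb1c or Ncr1, 9 and 7 had neither a Cd8 nor a Cd4 UMI, and 3 and 4 had a UMI of the gamma-delta T cell receptor genes Trdc or Tcrg-C1, which 21 of 453 and 12 of 260 T cells had. Few T cells thus held either gene.

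Klre1, which encodes a lectin-like receptor that forms heterodimers with other Klr proteins, was at 241 CPM (164 to 343) in WT and 518 CPM (347 to 744) in TSK NK cells, and at 55.9 and 76.3 CPM in T cells. The NK level was 4.32-fold and 6.79-fold that of T cells. Eomes was at 132 CPM (77.1 to 212) and 196 CPM (98.1 to 351) in NK cells and at 35.4 and 40.3 CPM in T cells. In WT NK cells, 10 of the 17 Eomes UMIs came from 1 cell, and 14 of 18 cells had none.

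Klrk1 (NKG2D) was at 319 CPM (229 to 433) in WT and 464 CPM (303 to 680) in TSK NK cells, and at 183 CPM (169 to 198) and 181 CPM (155 to 211) in T cells. The ratio of NK over T cells was 1.75-fold in WT and 2.56-fold in TSK, and both intervals were above equality. Klrd1 (CD94) was at 350 CPM (256 to 469) and 268 CPM (150 to 442) in NK cells and at 160 and 152 CPM in T cells. Only in the WT library was the interval of its NK over T ratio clear of equality (log2 1.13, 0.66 to 1.57), and in TSK it reached it (0.82, -0.05 to 1.59); the difference between libraries was not tested. Klrc1 (NKG2A) did not differ between the classes beyond counting error, with 156 and 89.3 CPM in NK cells against 138 and 155 CPM in T cells. The log2 ratios were 0.18 (-0.55 to 0.82) and -0.79 (-2.44 to 0.46).

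Il2rb, the beta chain that carries the IL-15 signal, was at 1332 CPM (1140 to 1547) in WT and 679 CPM (480 to 931) in TSK NK cells, and at 451 CPM (429 to 474) and 348 CPM (311 to 387) in T cells. NK cells exceeded T cells 2.95-fold in WT and 1.95-fold in TSK. Outside these lymphocytes it was near background, at 0.786 and 1.45 CPM in macrophages and monocytes. In dendritic cells all 10 WT UMIs came from 1 cell.

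**Figure D2:**
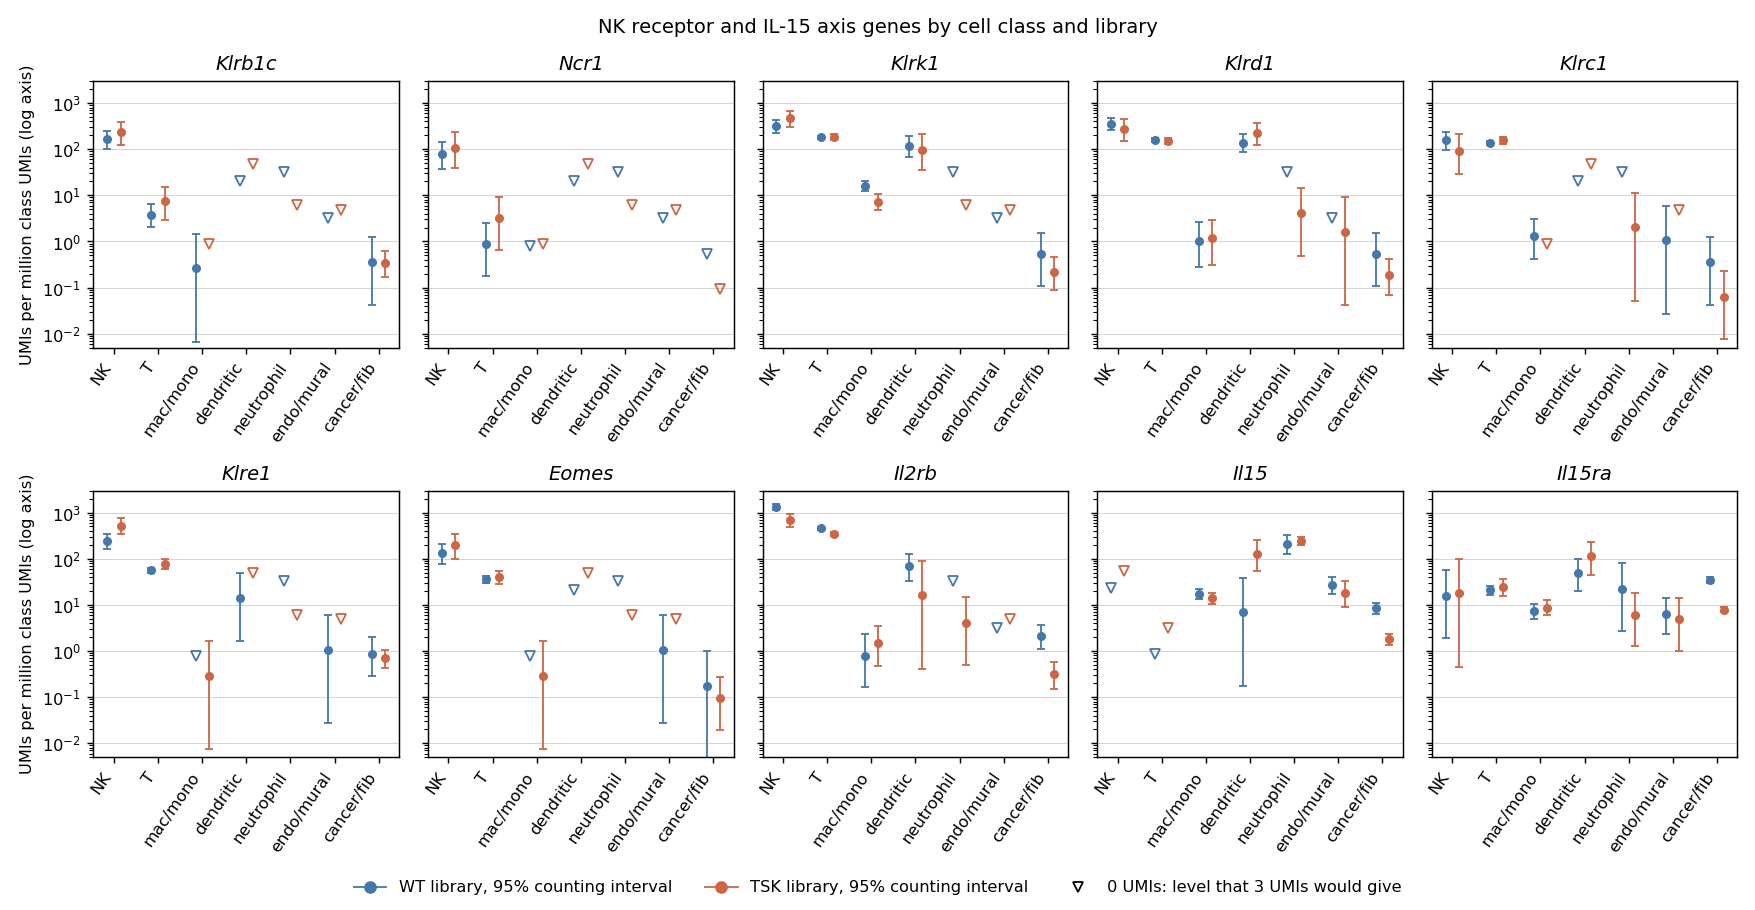
Level of each gene (vertical axis, CPM of the class, log scale) in 7 cell classes, WT in blue and TSK in orange; points with exact 95% counting intervals, open triangles for classes with 0 UMIs drawn at the level of 3 UMIs. Klrb1c and Ncr1 are over 30-fold lower in T than in NK cells, Klrk1, Klrd1 and Klrc1 differ by under 3-fold, and Il15 is highest in neutrophils and at 0 in NK and T cells.

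Single NK cells carried different sets of the 6 receptor genes. At least 1 of the 6 was detected in 17 of 18 WT and in 17 of 19 TSK NK cells, the median was 4 and 3 genes per cell, and no cell had all 6. The 6 genes summed to 0 to 18 UMIs per cell (median 9.5) in WT and to 0 to 14 (median 4) in TSK, at cell depths of 2485 to 12440 and 924 to 7833 UMIs. Detection of Ncr1 fell largely within that of Klrb1c, with 4 of the 5 Ncr1 cells also holding Klrb1c in each library. The product of the separate shares of cells gives 2.22 in WT and 2.63 in TSK. Of the 10 Klrd1 cells of WT, 6 also held Klrc1, its partner in the inhibitory receptor, against 5.56 from the product. In TSK 1 of 8 did, against 1.26, so both counts lay near the product. All 8 TSK and 9 of 10 WT cells with Klrd1 held Klre1, against 5.47 and 6.67 from the product. The part of depth in these counts was not tested. Il2rb was detected in 17 of 18 WT cells, with 0 to 20 UMIs per cell and a median of 11, and in 12 of 19 TSK cells, with 0 to 6 UMIs and a median of 2. The cells with most Il2rb UMIs were all WT, and the ranges of the libraries overlapped.

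**Figure D3:**
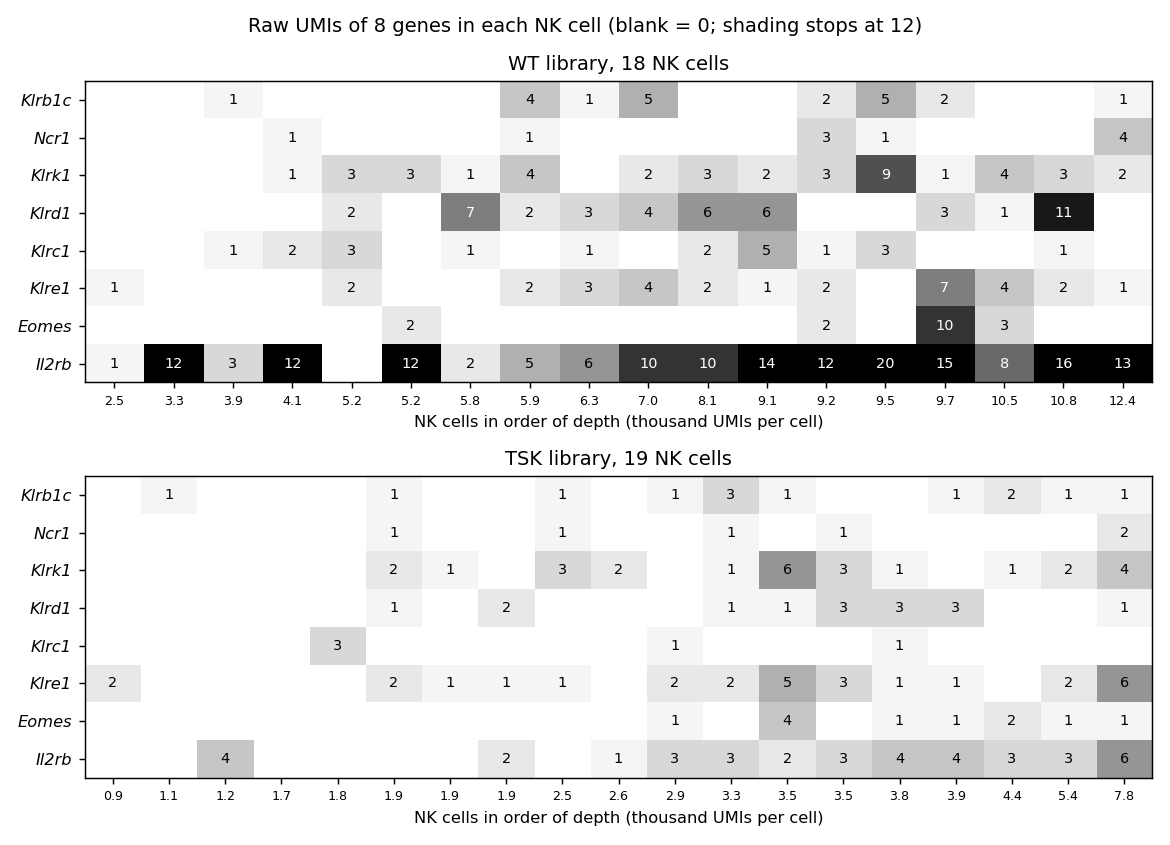
Raw UMIs of 8 genes (rows) in each NK cell (columns, in order of depth) of the WT library (18 cells, top) and the TSK library (19 cells, bottom); blank cells are 0. Il2rb fills nearly all WT columns with up to 20 UMIs and stays at 6 or below in TSK, where the cells are shallower.

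In the T cells Klrk1, Klrd1, Klrc1 and Klre1 were higher with Cd8 than with Cd4, and cells with neither also held them. The split by Cd8a or Cd8b1 and Cd4 UMIs was chosen after the values were seen, and it depends on depth, since shallow cells can lack both. Cells with Cd8 (322 WT, 170 TSK) had Klrk1 at 204 CPM (186 to 223) and 249 CPM (210 to 293), and cells with Cd4 and no Cd8 (59 WT, 22 TSK) at 38.0 CPM (22.5 to 60.1) in WT and at 0 UMIs in TSK, which allows up to 23.5 CPM. Klrc1 was at 171 and 206 CPM with Cd8, and gave 4 WT and 1 TSK UMIs with Cd4 (log2 ratios of Cd8 over Cd4 4.34, 2.97 to 6.22, and 4.72, 2.21 to 10.03). Klre1 was at 57.4 and 104 CPM with Cd8, against 2 UMIs and 0 UMIs in the Cd4 cells. Klrd1 was at 180 and 227 CPM with Cd8, at 84.5 CPM (40 UMIs in 11 of 59 cells) in the WT Cd4 cells and at 0 UMIs in the TSK Cd4 cells.

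Il2rb did not follow this division in WT, with 437 CPM (411 to 464) in Cd8 cells and 477 CPM (417 to 544) in Cd4 cells, while in TSK it was at 370 CPM (322 to 422) and 212 CPM (139 to 308). Il15ra in T cells was at 20.5 and 24.4 CPM, and 13 of the 23 TSK UMIs came from 1 cell with Cd4. T cells with neither Cd8 nor Cd4 (72 and 68) had Klrk1 at 216 and 109 CPM, Klre1 at 96.3 and 48.0 CPM, Klrd1 at 133 and 43.7 CPM and Klrc1 at 100.2 and 105 CPM. In WT, Klrk1 did not differ between the Cd8 cells and these cells beyond counting error (log2 -0.08, -0.38 to 0.23), and Klre1 was lower in the Cd8 cells (-0.75, -1.22 to -0.25). In TSK both were higher in the Cd8 cells (1.19, 0.57 to 1.86, and 1.11, 0.17 to 2.19). These cells held 10 of the 13 WT and all 7 TSK Klrb1c UMIs of T cells and all 3 Ncr1 UMIs of each library.

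**Figure D4:**
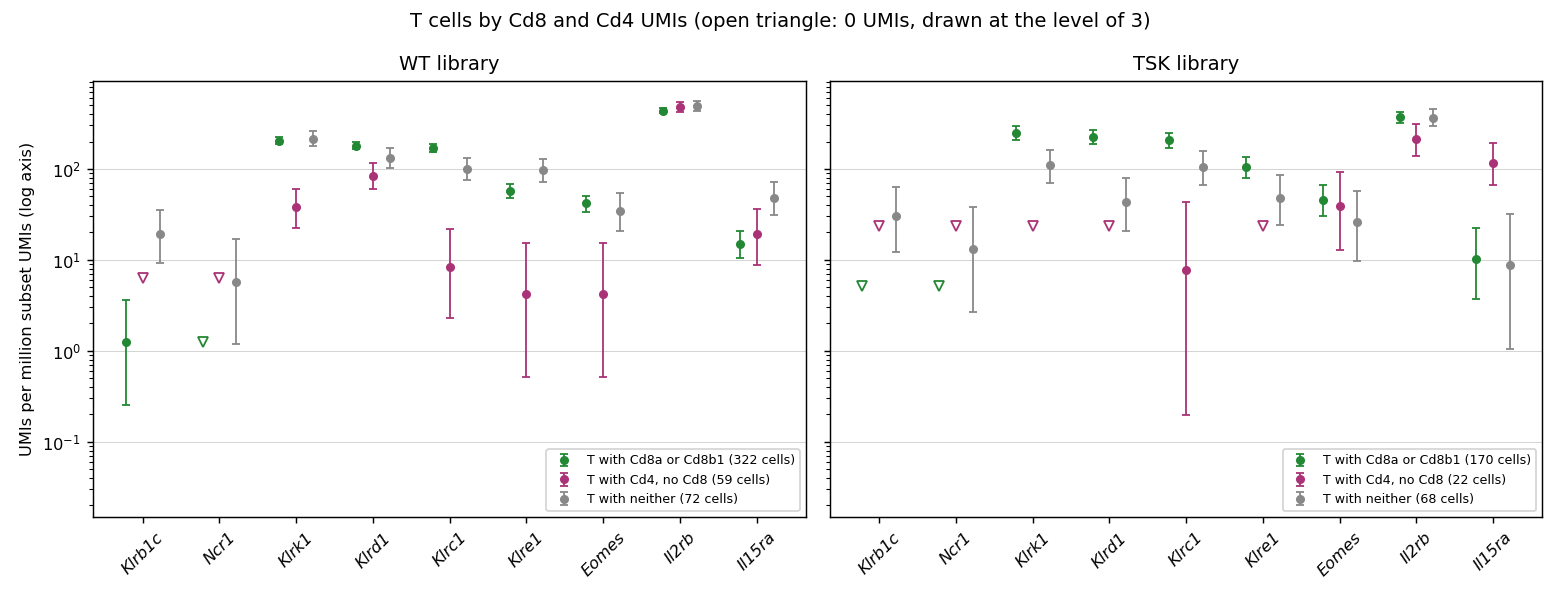
Levels of 9 genes (vertical axis, CPM of the subset, log scale) in T cells with Cd8a or Cd8b1 UMIs (green), with Cd4 and no Cd8 (purple) and with neither (grey), WT left and TSK right, with exact 95% counting intervals and open triangles for 0 UMIs. Klrk1, Klrc1 and Klre1 are high with Cd8 and low or absent with Cd4 in both libraries, and Klrb1c and Ncr1 appear mostly in the cells with neither.

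Receptor genes were detected together in the same T cells more often than the product of their separate shares gives. Klrd1 was in 217 and Klrc1 in 217 of the 453 WT T cells and both in 133, against 104 from the product. In TSK they were in 83 and 87 of 260 cells and both in 48, against 27.8. Within the Cd8 cells of WT the same counts were 110 against 99.8, and in TSK 44 against 32.6. Deeper cells show more genes of any kind, and the part of depth in these counts was not tested. T cells with a Mki67 or Top2a UMI, genes of dividing cells, had Klrk1 at 200 and 194 CPM, against 173 and 171 CPM in the T cells without, and the intervals of both ratios included equality. So did those of Klrd1 and Klrc1 in both libraries. Klre1 was higher with these genes in TSK, at 103 against 54.3 CPM (log2 0.92, 0.21 to 1.66), and was at 58.8 against 54.3 CPM in WT (0.11, -0.33 to 0.55).

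Between genotypes the question was whether NK receptors and IL-15 signalling genes differ in the TSK tumors, and in NK cells most ratios lay within counting error. The 6 receptor genes summed to 1308 CPM in WT and 1679 CPM in TSK NK cells, a log2 ratio of 0.36 (-0.02 to 0.73). Of the 7 members that reached 20 UMIs in NK cells, 1 was at least 2-fold higher in TSK and none at least 2-fold lower, against 9.78% and 7.98% of all 1442 genes tested. Klre1 was the member that passed, with 31 UMIs in WT and 29 in TSK (log2 1.10, 0.32 to 1.88). No single cell held more than 7 of its UMIs, and the ratio was under 2-fold with mixed cells kept (0.81) and when scaled by the median gene ratio (0.94). Klrb1c, Ncr1, Klrk1, Klrd1, Klrc1 and Eomes had log2 ratios from -0.80 to 0.57, and all 6 intervals included 0. For Ncr1 the interval was -1.28 to 2.06, so a difference of 2-fold in either direction was not excluded. The other intervals reached past 2-fold in 1 direction, upward for Klrb1c (1.57), Klrk1 (1.28) and Eomes (1.75) and downward for Klrd1 (-1.34) and Klrc1 (-2.57).

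Il2rb was just under the 2-fold limit in NK cells, at 171 UMIs in WT and 38 in TSK (log2 -0.97, -1.52 to -0.46). Over the alternatives it ranged from -1.15 to -0.64, and its interval stayed below 0 wherever one was computed. When every cell of at least 1000 UMIs was thinned to 1000, 66.7% of WT and 38.9% of TSK NK cells (12 and 7 of 18 each) kept an Il2rb UMI. The exact intervals of these shares overlapped. The highest cell held 11.7% of the WT and 15.8% of the TSK UMIs. NK cells gated by an Ncr1 or Klrb1c UMI without Cd3 (10 WT and 12 TSK cells, 9 and 11 of them also in the main gate) gave 1379 and 645 CPM. Whether the pools differ by genotype or by mouse, digestion or cell depth cannot be told apart with 1 library each.

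In T cells, with more UMIs, Klrk1, Klrd1 and Klrc1 did not differ between the libraries beyond counting error over the whole class. Klrk1 was at 183 CPM in WT and 181 CPM in TSK (log2 -0.01, -0.26 to 0.24), Klrd1 at 160 and 152 CPM (-0.08, -0.35 to 0.19) and Klrc1 at 138 and 155 CPM (0.17, -0.11 to 0.44). These intervals run from -0.35 to 0.44 on the log2 scale. Klre1 was at 55.9 and 76.3 CPM (0.45, 0.04 to 0.85), and this ratio was 0.17 with equal weight for each cell and 0.20 (-0.21 to 0.59) with mixed cells kept. Klrb1c had 13 and 7 UMIs (0.96, -0.60 to 2.39), and Eomes was at 35.4 and 40.3 CPM (0.19, -0.38 to 0.72). Il2rb was lower in TSK T cells, at 451 and 348 CPM (-0.38, -0.55 to -0.20), the same direction as in NK cells. None of the 8 members that reached 20 UMIs in T cells differed by 2-fold, where 10.5% of 9168 genes were that much higher and 3.92% that much lower in TSK. Shares of T cells with a UMI showed a larger gap, Klrk1 in 51.7% of WT and 36.5% of TSK cells. Among the T cells of at least 1000 UMIs, thinned to 1000, they were 15.9% (12.7 to 19.6) and 14.6% (10.5 to 19.6).

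Within the T cell subsets defined after the values were seen, the ratios went in different directions. In the Cd8 cells they were above 0 for Klrk1 (0.29, 0.01 to 0.56), Klrd1 (0.33, 0.04 to 0.61) and Klre1 (0.86, 0.40 to 1.30), and Klrc1 was at 0.27 (-0.03 to 0.57). In the cells with neither Cd8 nor Cd4 they were below 0 for Klrk1 (-0.98, -1.67 to -0.35), Klrd1 (-1.61, -2.73 to -0.64) and Klre1 (50 and 11 UMIs, interval -2.09 to -0.04), and Klrc1 was at 0.07 (-0.70 to 0.79). In the Cd4 cells, Klrk1 had 18 UMIs in WT and Klrd1 40, and both had 0 in TSK. The part of depth in these ratios was not tested.

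Over all kept cells the levels were lower in TSK. T cells were 31.4% of WT and 8.78% of TSK cells, and the part of this in the levels over all cells was not tested. Over all kept cells Klrk1 was at 48.6 CPM (45.4 to 52.0) in WT and 6.18 CPM (5.48 to 6.94) in TSK, Klrd1 at 39.6 and 4.82 CPM, and Il2rb at 110 and 10.8 CPM. Cancer or fibroblast cells were 16.2% of WT and 43.0% of TSK cells.

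**Figure D5:**
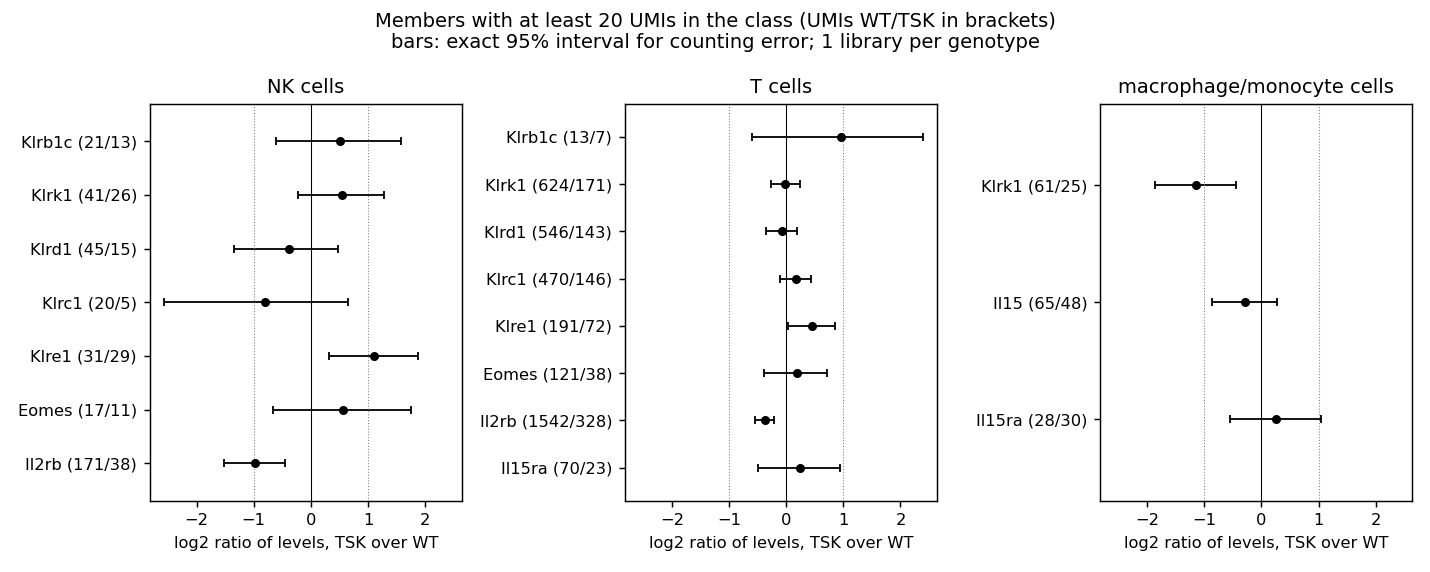
Log2 ratio of levels, TSK over WT (horizontal axis), for members that reached 20 UMIs in NK cells, T cells and macrophages or monocytes, with exact 95% counting intervals, dotted lines at 2-fold and the UMIs of WT and TSK in brackets. Il2rb lies below 0 in NK and T cells, Klre1 above 0 in both, Klrk1 below 0 in macrophages and monocytes, and the intervals of the other members include 0.

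Klrk1 was the receptor gene also found in macrophages and monocytes. It gave 61 UMIs in 38 of 326 WT cells (16.0 CPM, 12.2 to 20.5) and 25 UMIs in 18 of 452 TSK cells (7.27 CPM, 4.71 to 10.7), while cancer or fibroblast cells had 0.527 and 0.219 CPM. The other 5 receptor genes together gave 10 UMIs in WT and 5 in TSK. There were 15.2 Klrk1 UMIs per Klrd1 UMI in WT macrophages and monocytes (5.66 to 57.8) and 6.25 in TSK (2.16 to 24.7), against 1.14 (1.02 to 1.28) and 1.20 (0.952 to 1.50) in T cells. Of the Klrk1-positive cells, 0 of 38 and 2 of 18 had a Cd3 or Nkg7 UMI, against 4 of 288 and 7 of 434 of the others. Their median depth was 13197 and 9129 UMIs, above the 9626 and 6374 of the cells without Klrk1.

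The Klrk1 level in macrophages and monocytes was lower in TSK (log2 -1.14, -1.87 to -0.44), and it was the 1 member of the 3 with 20 UMIs that was at least 2-fold lower, where 3.18% of 10570 genes were and 11.9% were at least 2-fold higher. The ratio was under 2-fold with equal weight for each cell (-0.56), with 1 more marker gene needed (-0.95) and with at most 10000 UMIs per cell (-0.88, -1.90 to 0.13). Split by C1q UMIs, which was chosen after the values were seen, cells with 3 or more had 16.4 CPM in WT (11.8 to 22.2) and 5.14 CPM in TSK (2.87 to 8.47), and cells with at most 2 had 15.2 and 19.4 CPM. The lower level in TSK was measured in the cells with C1q, and whether the 2 kinds of cell differ in this was not tested. Dendritic cells, few in number, had Klrk1 at 118 CPM (17 UMIs) and 96.4 CPM (6 UMIs) and Klrd1 at 139 CPM (20 UMIs) and 225 CPM (14 UMIs), with no T cell marker UMI in any of them and 6 and 0 UMIs of the NK markers. Of the 20 WT Klrd1 UMIs, 16 came from 1 cell.

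Il15 was highest in neutrophils. It gave 19 UMIs in 10 of 25 WT neutrophils (208 CPM, 125 to 325) and 119 UMIs in 55 of 183 TSK neutrophils (241 CPM, 199 to 288), with up to 6 and 8 UMIs per cell. Macrophages and monocytes had 17.0 CPM (13.1 to 21.7, 65 UMIs in 42 cells) and 14.0 CPM (10.3 to 18.5, 48 UMIs in 35 cells). Neutrophils were 12.2-fold above them in WT (log2 3.61, 2.79 to 4.37) and 17.2-fold in TSK (4.11, 3.61 to 4.62). At least 2-fold higher levels in neutrophils in both libraries were found for 6.85% of 10860 genes. After thinning to 1000 UMIs, 30.4% of the WT and 17.5% of the TSK neutrophils with at least 1000 UMIs kept an Il15 UMI. Among such macrophages and monocytes 1.56% and 1.88% did. Macrophage markers in the neutrophils summed to 175 and 198 CPM, against 36123 and 58051 CPM for the neutrophil markers.

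Within neutrophils Il15 did not differ between the libraries beyond counting error (log2 0.21, -0.49 to 0.99), nor in macrophages and monocytes (-0.29, -0.86 to 0.27). The number of neutrophils did, at 1.73% of WT and 6.18% of TSK cells. Neutrophils held 8.41% (5.14 to 12.8) of the 226 Il15 UMIs in WT and 41.2% (35.4 to 47.1) of the 289 in TSK, while giving 0.535% and 1.08% of all UMIs. Macrophages and monocytes held 28.8% and 16.6%. T cells had no Il15 UMI among 3416234 and 943506 UMIs, which allows up to 0.878 and 3.18 CPM, and NK cells had none, which allows up to 23.4 and 53.6 CPM. Endothelial or mural cells had 26.9 and 18.0 CPM. Dendritic cells had 6.95 CPM from 1 UMI in WT and 128 CPM in TSK from 8 UMIs in 4 cells, 4 of them in 1 cell.

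In the cancer or fibroblast class, which held 20.6% of the Il15 UMIs, Il15 was at 8.42 CPM (6.21 to 11.2) in WT and 1.82 CPM (1.38 to 2.35) in TSK (log2 -2.21, -2.79 to -1.63). Split by the cancer markers Lgals7 and Cdkn2a, which was chosen after the values were seen, cells with 2 or more of their UMIs had 2.71 CPM (1.09 to 5.58) and 1.26 CPM (0.884 to 1.73). The other cells of the class had 13.2 CPM (9.46 to 17.9) and 8.49 CPM (5.26 to 13.0).

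Il15ra, which presents IL-15, was spread over more classes. Dendritic cells had 48.6 CPM (19.6 to 100) in WT and 112 CPM (45.2 to 232) in TSK, from 7 UMIs each, and macrophages and monocytes had 7.33 and 8.73 CPM (28 and 30 UMIs, log2 0.25, -0.54 to 1.05). With equal weight for each cell the sign turned (-0.36), so no direction can be given. Neutrophils, the class with the highest Il15 level, had 2 and 3 Il15ra UMIs. A single neutrophil of 208 had UMIs of both genes, and of the 77 macrophages and monocytes with Il15, 3 of 42 in WT and 5 of 35 in TSK also had Il15ra.

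The cancer or fibroblast class held 60.6% of all Il15ra UMIs, 55.2% in WT and 65.7% in TSK, where it gave 33.4% and 70.0% of all UMIs. Its level was 35.1 CPM (30.4 to 40.3) in WT and 7.79 CPM (6.86 to 8.82) in TSK (log2 -2.17, -2.45 to -1.90), but the class had different makeups. Cells with 2 or more UMIs of Lgals7 and Cdkn2a, the same split as for Il15, were 86 of 233 in WT and 1026 of 1274 in TSK, and had 3.87 CPM (1.85 to 7.11) and 5.09 CPM (4.31 to 5.97). The other cells of the class had 61.1 CPM (52.7 to 70.4) and 40.0 CPM (32.5 to 48.7), a log2 ratio of -0.61 (-0.97 to -0.25). In the TSK library the marker-bearing cells, in which Il15ra was low in both libraries, were the larger share of the class.

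Genes that work with the members were taken from lists, and their counts are to be read against all genes with 20 or more UMIs. In TSK, 9.78% of these were at least 2-fold higher and 7.98% at least 2-fold lower in NK cells, 10.5% and 3.92% in T cells, and 11.9% and 3.18% in macrophages and monocytes. The adaptors Tyrobp, Fcer1g, Hcst and Cd247, which carry the signal of activating receptors, had a median log2 ratio of 0.29 in NK cells (all genes 0.11) with 0 of 4 past 2-fold in either direction, and Tyrobp was at 919 and 1125 CPM and Cd247 at 171 and 286 CPM. Their medians were 0.08 in T cells and 0.39 in macrophages and monocytes, with 0 of 4 past 2-fold. Of 11 other NK receptor genes, 5 reached 20 UMIs in NK cells, with a median of -0.22, and Cd226 (DNAM-1), at 156 and 53.6 CPM from 20 and 3 UMIs (log2 -1.54, -3.93 to 0.21), was the 1 past 2-fold. Klrb1b was at 459 and 393 CPM and Klrc2 at 156 and 232 CPM. In T cells, 1 of 10 was at least 2-fold higher in TSK (Klrg1, log2 1.01, named after its value was seen) and none lower, with a median of -0.05.

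In macrophages and monocytes 2 of 5 other receptor genes were at least 2-fold lower in TSK (median -0.98, against 3.18% and a median of 0.26 for all genes), Klrb1b (36.7 and 16.6 CPM, log2 -1.15, -1.62 to -0.69) and Cd226 (13.4 and 6.40 CPM, -1.06, -1.85 to -0.31, named after its value was seen). Cd244a was close to that limit (52.7 and 26.8 CPM, -0.98, -1.35 to -0.61). Fcgr3, an Fc receptor, was at 415 and 418 CPM and Havcr2 (TIM-3) at 67.8 and 82.0 CPM. Klrk1 was thus not alone among receptor genes in a lower TSK level in this class.

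Among 12 genes of the IL-15 receptor and its signalling, 6 reached 20 UMIs in NK cells, with a median of 0.09 (all genes 0.11), 2 at least 2-fold higher (9.78% of all genes) and none lower in TSK. Bcl2, which protects lymphocytes from cell death, was at 171 and 750 CPM (log2 2.13, 1.35 to 2.94), with 14 of its 42 TSK UMIs in 1 cell, and Stat5b, named after its value was seen, at 101 and 232 CPM (1.20, -0.03 to 2.42). The common gamma chain Il2rg was at 265 and 250 CPM, Jak1 at 678 and 750 CPM and Pim1 at 350 and 268 CPM. The interval of the Il2rg ratio in NK cells was wide (log2 -1.10 to 0.85). In T cells none of the 12 passed 2-fold (median 0.00), with Pim1 at 447 and 331 CPM and Jak1 at 513 and 461 CPM. In macrophages and monocytes 2 of 11 were at least 2-fold lower (median -0.07, against 3.18% and 0.26 for all genes), the feedback inhibitors Cish (69.7 and 30.5 CPM, -1.19, -1.53 to -0.86) and Socs1 (62.3 and 21.2 CPM, -1.55, -1.95 to -1.17), named after their values were seen.

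Of 10 transcription factors of NK cells, 5 reached 20 UMIs in NK cells, with a median of -0.67. Id2, needed for innate lymphoid cells, was the 1 at least 2-fold lower in TSK (537 and 214 CPM, log2 -1.33, -2.35 to -0.43). Tbx21 (T-bet), the partner factor of Eomes, was at 389 and 214 CPM (-0.86, -1.91 to 0.07). In T cells 0 of 9 passed 2-fold (median 0.23), with Id2 at 288 and 380 CPM, and in macrophages and monocytes 0 of 6 (median 0.35). The 6 cytotoxic genes had a median of -1.12 in NK cells, with 3 at least 2-fold lower in TSK (7.98% of all genes, with a median of 0.11). Gzmb (granzyme B) was at 1729 and 554 CPM (-1.64, -2.23 to -1.10), and Xcl1 and Ifng, named after their values were seen, at 545 and 53.6 CPM and at 187 and 71.4 CPM. The Ifng interval included equality. Of the WT UMIs, 28 of 70 for Xcl1 and 11 of 24 for Ifng came from 1 cell. Perforin (Prf1) was at 483 and 268 CPM, Nkg7 at 1005 and 1107 CPM and Ccl5 at 4213 and 4089 CPM. In T cells 0 of 6 passed 2-fold (median 0.12), and in macrophages and monocytes only Ccl5 reached 20 UMIs (338 and 306 CPM).

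Ligands were measured in the tumor cells, with the same split as for Il15ra. In cells with Lgals7 and Cdkn2a UMIs, H2-T23, which encodes Qa-1, the ligand of CD94/NKG2A, was at 150 CPM in WT and 20.5 CPM in TSK (log2 -2.88, -3.06 to -2.69). The classical MHC class I genes H2-D1 and H2-K1 were at 792 and 187 CPM and at 871 and 215 CPM. The NKG2D ligand genes Raet1e (26.7 and 18.4 CPM, -0.54, -0.90 to -0.15), Raet1d (16.2 and 7.53 CPM) and Ulbp1 (14.3 and 7.02 CPM) were also lower in TSK in these cells, by less. For H60b, at 3.48 and 2.51 CPM, the interval included equality (-0.47, -1.47 to 0.71). Clec2d was at 24.4 and 4.85 CPM (-2.33, -2.77 to -1.88). No median ratio over all genes was computed for the marker-bearing cells, so these ratios are not set against a general shift. Raet1d, Ulbp1, H60b and Clec2d are named beyond the 4 genes of the list with the largest sums. In the other cells of the class, H2-T23 was at 104 and 71.2 CPM and Raet1e had 2 UMIs in each library. Over the whole class, H2-T23 was at 125 and 24.4 CPM (-2.36, -2.51 to -2.21). Raet1e was higher in TSK over the whole class (12.5 and 17.0 CPM, 0.45, 0.09 to 0.83), the opposite of its direction in the marker-bearing cells. Raet1d (7.55 and 7.07 CPM, -0.09, -0.57 to 0.41) and Ulbp1 (9.13 and 6.85 CPM, -0.41, -0.86 to 0.05) did not differ over the whole class beyond counting error. Of the 9 ligand genes, 3 reached 20 UMIs in NK cells, 6 in T cells and 6 in macrophages and monocytes, with medians of -0.52, -0.46 and 0.17 and none past 2-fold. In the cancer or fibroblast class 8 did, with 4 at least 2-fold lower in TSK (median -1.21) and none higher, where 15.5% of 15356 genes were lower and 19.7% higher by 2-fold (median 0.26).

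Across 14 sums (7 classes in 2 libraries, on the log2(CPM + 1) scale), the gene most like Ncr1 was Klrb1c (Pearson r = 0.99), followed by the Ly49 genes Klra9 and Klra4. Klra9, Klra4, Klra7, Gzma and Klri2, named here, were among the genes that chose the NK cells. Klrc1 was most like Tmem163, Klrc3 and Cd96 (r = 0.99 each), Klrk1 most like P2ry10, Padi2 and Gpr171 (0.98 to 0.95), and Klrd1 most like Cd7, Dscam and Ptprcap (0.98 to 0.96). Klrb1c was most like Samd3, Gzma and Zbtb44, Klre1 most like Klri2, Sult2b1 and Gimap7, and Eomes most like Tespa1, Klra7 and Prf1 (0.99 each). Il2rb was most like Dscam, Gimap7 and Sytl3 (0.97 to 0.95). Il15 had no gene as close, with Atrnl1, Ankrd33b and Fam217b at 0.92 to 0.90, and for Il15ra the closest were Hivep1, Plscr1 and Dscaml1 at 0.84 to 0.79. The sums of a library share its cells and depth, and NK and dendritic sums rest on few cells, so these values describe the likeness of patterns only.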

How the data were processed

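Single-cell RNA of pooled subcutaneous tumors (10x Genomics, 3′ ends) was measured in 2 libraries, 1 for WT and 1 for TSK. The authors deposited raw UMI counts per gene and barcode, made with Cell Ranger (7.1.0 per the file headers; the submitters' processing notes list Cell Ranger 7.1.1) against mm10; whether intronic reads were counted is not given in the sources used here. The libraries held 21225411 and 48296765 UMIs. The 263 barcodes found in both libraries were left out. No upper limit on UMIs was set. No doublet caller was run: cells that passed the marker minimum of more than 1 class were left out as mixed where the second marker share exceeded 50% of the first (77 WT and 203 TSK cells), and 226 and 476 cells had no class.

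Counts were summed per class and library and divided by the class total. Intervals are exact (95%): Poisson for levels, Clopper-Pearson for shares and conditional binomial for ratios, for counting error only; a count of 0 was taken to allow 3. The ratio interval was tested on simulated Poisson counts only, the kind of count it is made for. UMIs that gather in single cells, as some did here, were not simulated. With 1 library per genotype no p-value was computed. The members and lists were chosen with earlier results of these data known. Named genes are the 10 members and, from each of 6 lists, at most 4 genes with at least 20 UMIs and the largest sum in the class, plus the 3 genes most like each member. Genes of the lists named beyond this rule are marked where they appear. The intervals came from scipy 1.17.1, with numpy 2.4.6, pandas 2.3.3 and Python 3.11.15, and the plots from matplotlib 3.10.9. Alternatives concerned the filters, the gates, mixed cells, the weight of cells, the scaling and thinning.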

Additional observations from a re-analysis of the deposited data

Results flagged for a closer look

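Signals lay outside the cells that were compared. Kept cells with mixed markers (280 cells) held 138 UMIs of the 6 receptor genes, and kept cells with no class (702 cells) held 198. Mixed cells and cells with no class together held 113 UMIs of Il15. Barcodes found in both libraries that passed the filter (506 cells) held 13 receptor UMIs, and the other barcodes that failed the filter (1839) held 25. These values are above the 3 UMIs that a count of 0 allows, and they enter no level of a class and no ratio between classes or libraries. The mixed cells and the cells with no class are part of the totals over all kept cells and of the shares by location, and the other barcodes are not.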

How the results depend on the processing

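Of the main comparisons, 72 of 79 recomputed values lay within the counting interval of the value reported, and none that was clear of equality changed direction. Of the recomputed values outside the main comparisons, 331 lay within that interval and 63 did not. With the study's upper limit of 10000 UMIs and 10000 genes per cell, T cells held 79.3% of the receptor UMIs and neutrophils 48.1% of the Il15 UMIs. With 1 more marker gene needed, these were 69.7% and 22.9%. With the main settings they were 74.3% and 26.8% over both libraries. With cells of mixed markers put into their leading class, T cells held 76.1%, the receptor log2 ratio in T cells was -0.16 (from 0.09) and that of Il2rb in T cells was -0.64 (from -0.38); the cause was not tested. Single member ratios stayed within their intervals in 115 of 122 recomputations. Those that did not were Klrc1 in NK cells with 1 more marker gene (-2.64), Klrk1 in T cells with mixed cells kept (-0.28) and Il15ra in cancer or fibroblast cells (-2.46 to -0.61). Without cells with a Cd3 or Nkg7 UMI, an alternative chosen after seeing the data, Klrk1 in macrophages and monocytes kept its direction. No paired analysis was possible because each genotype has 1 library.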
